A study of Mus musculus with 54 samples.

Results

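The genes of the synaptic vesicle release machinery were followed over 24 hr in RNA from the mouse suprachiasmatic nucleus (SCN), the hypothalamic nucleus that holds the master circadian clock. Members were chosen by name: gene symbols of the synaptotagmins (*Syt*), syntaxins (*Stx*), VAMPs (*Vamp*), SNAPs (*Snap*), complexins (*Cplx*), syntaxin-binding proteins (*Stxbp*), RIMs (*Rims*), Munc13s (*Unc13*), SV2 proteins (*Sv2*), synaptogyrins (*Syngr*) and symbols that begin with *Rab3*, together with *Syn1*, *Syn2*, *Syn3*, *Syp* and *Nsf*. A member also needed at least 1 read in more than 6 of the 18 biological replicates, the filter applied to all genes. Of 93 genes with such a name, 87 passed, among 18941 genes tested, and 80 of the 87 had reads in all 18 replicates. The 6 that did not pass were *Cplx4*, *Stx11*, *Syngr4*, *Syt8*, *Vamp7* and the pseudogene *Vamp7-ps*. The name rule also took in 12 Rab GTPases outside the Rab3 family (*Rab30* to *Rab39b*), the coat adaptor *Snap91* and the pseudogene *Stxbp3-ps*, whose reads cannot be told apart with confidence from those of its parent *Stxbp3*.

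The SCN was laser-captured from male C3H/HeH mice aged 10 to 12 weeks, and every replicate is labelled WT (wild type). The mice were kept in a 12:12 light/dark (LD) cycle at 150 lux and were otherwise untreated. Brains were taken at 6 zeitgeber times (ZT, hours after lights on): ZT2, ZT6 and ZT10 in the light and ZT14, ZT18 and ZT22 in the dark. At each timepoint 3 biological replicates (A, B and C) were sequenced, each a pool of 5 animals run on 3 lanes, so that 54 lane samples make 18 replicates, with total counts of 15412981 to 35820945 per replicate (lowest in ZT18 replicate C). Separate pools carry the error of the tests, and no 2 replicates looked like the same library (at most 0.468% of genes with identical counts in a pair). The study's principal component plot, whose legend names timepoint and sequencing batch, puts the replicates in 3 clusters, one of ZT14 and ZT18, one of ZT22 and ZT2, and one of ZT6 and ZT10. Between these clusters the timepoint and any sequencing batch that follows them cannot be told apart, and only the differences between the 2 timepoints of one cluster do not cross clusters. Because the tissue was taken whole, fewer cells of a type and less RNA per cell also cannot be told apart.

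Neurotransmitter leaves a nerve terminal when a synaptic vesicle fuses with the plasma membrane. The vesicle SNARE VAMP2 zips together with a syntaxin and SNAP-25 on the plasma membrane, and the ATPase NSF later takes the spent complex apart. RIM and Munc13 proteins at the active zone dock and prime vesicles with Rab3, complexins clamp and boost the primed complex, and synaptotagmins 1, 2 and 9 sense the calcium that triggers fusion. In the SCN, where nearly all neurons are GABAergic, the same machinery serves GABA release and, with related isoforms, the release of neuropeptides such as VIP and AVP from dense-core vesicles. Markers were set beside the tissue label, though their detection does not show how clean the capture was. All 10 SCN neuron markers examined were detected, with *Vip* at a mean of 963 CPM (read counts scaled to a common library size) or more at every timepoint, and summed levels of 1502 to 2047 CPM at ZT14, the lowest timepoint, and 5430.0 to 5968 CPM at ZT6, the highest. Some were low at times, such as *Avp* at 5.37 CPM at ZT22 and *Prok2* at 2.26 CPM at ZT18. Markers of telencephalic excitatory neurons, which lie outside the SCN, were detected too. Their mean sum at ZT14 was 1381 CPM, beside 1863 CPM for the SCN list.

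Levels can be compared between genes only per kilobase of exon (RPKM). On that scale the members ran from 0.114 ± 0.0944 (SD over the 18 replicates) for *Syt15* to 465 ± 183 RPKM for *Snap25*, the SNARE that supplies 2 of the helices of the fusion complex, with a median of 9.38. A mean over 100 RPKM was found for 9 members and a mean under 1 RPKM for 11. After *Snap25* came *Snap47*, a SNAP-25 relative found on inner membranes, at 259 ± 94.4 RPKM, and *Syt4*, a synaptotagmin that does not bind calcium in the usual way and sits on dense-core vesicles, at 211 ± 73.8 RPKM. *Syt11* and *Syt10* followed at 205 ± 67.0 and 192 ± 88.3 RPKM. *Syt10* is a synaptotagmin known for its high expression in the SCN. The lowest besides *Syt15* were *Unc13d* at 0.143 ± 0.108 and *Rab38* at 0.211 ± 0.447 RPKM, and values this low rest on a mean of 10.6 to 16.3 reads per library. Among the fast calcium sensors *Syt1* made up 89.0% of the summed RPKM, *Syt9* 9.75% and *Syt2* 1.23%. *Cplx1* made up 76.4% of the complexins and *Sv2a* 88.7% of the SV2 genes. Among the synapsins, *Syn2* held 57.7% and *Syn1* 41.3%.

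Expression of 48 of the 87 members changed over the 6 timepoints (edgeR quasi-likelihood test of any difference between timepoints, q under 0.05 after Benjamini-Hochberg adjustment over all genes tested). This was 55.2% of the members, beside 44% of all genes tested. The highest timepoint mean of these 48 was between 1.56 and 38.6 times the lowest, with a median of 2.68, against a median of 3.09 over all changing genes. The upper end belonged to *Stx19*, whose peak rested on ZT6 replicate C. Cycling, meaning the time test together with a 24-hr waveform by JTK_CYCLE (p under 0.05, Bonferroni over 6 phases), was called for 32 members, or 36.8%, beside 29.9% of all genes. By the phase of the fitted waveform, 10 of these peaked at ZT22 and 8 at ZT14, with 5 at ZT18, 4 each at ZT2 and ZT10, and 1 at ZT6 (*Vamp2*). The leading peaks, ZT22 with 31.3% and ZT14 with 25% of the cycling members, were also those of all cycling genes, with 24.4% and 23.8%. Most of this change lay between the clusters of replicates. Each cluster pairs neighbouring timepoints, so a smooth 24-hr wave also places most of its variance between clusters. The share between clusters therefore cannot tell a rhythm from a batch. Differences between clusters were called for 58 members, or 66.7%, beside 54% of all genes, and between-cluster variance made up a median of 84.5% of the variance among timepoint means in the 48 changing members (90.8% over all changing genes).

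**Figure D1:**
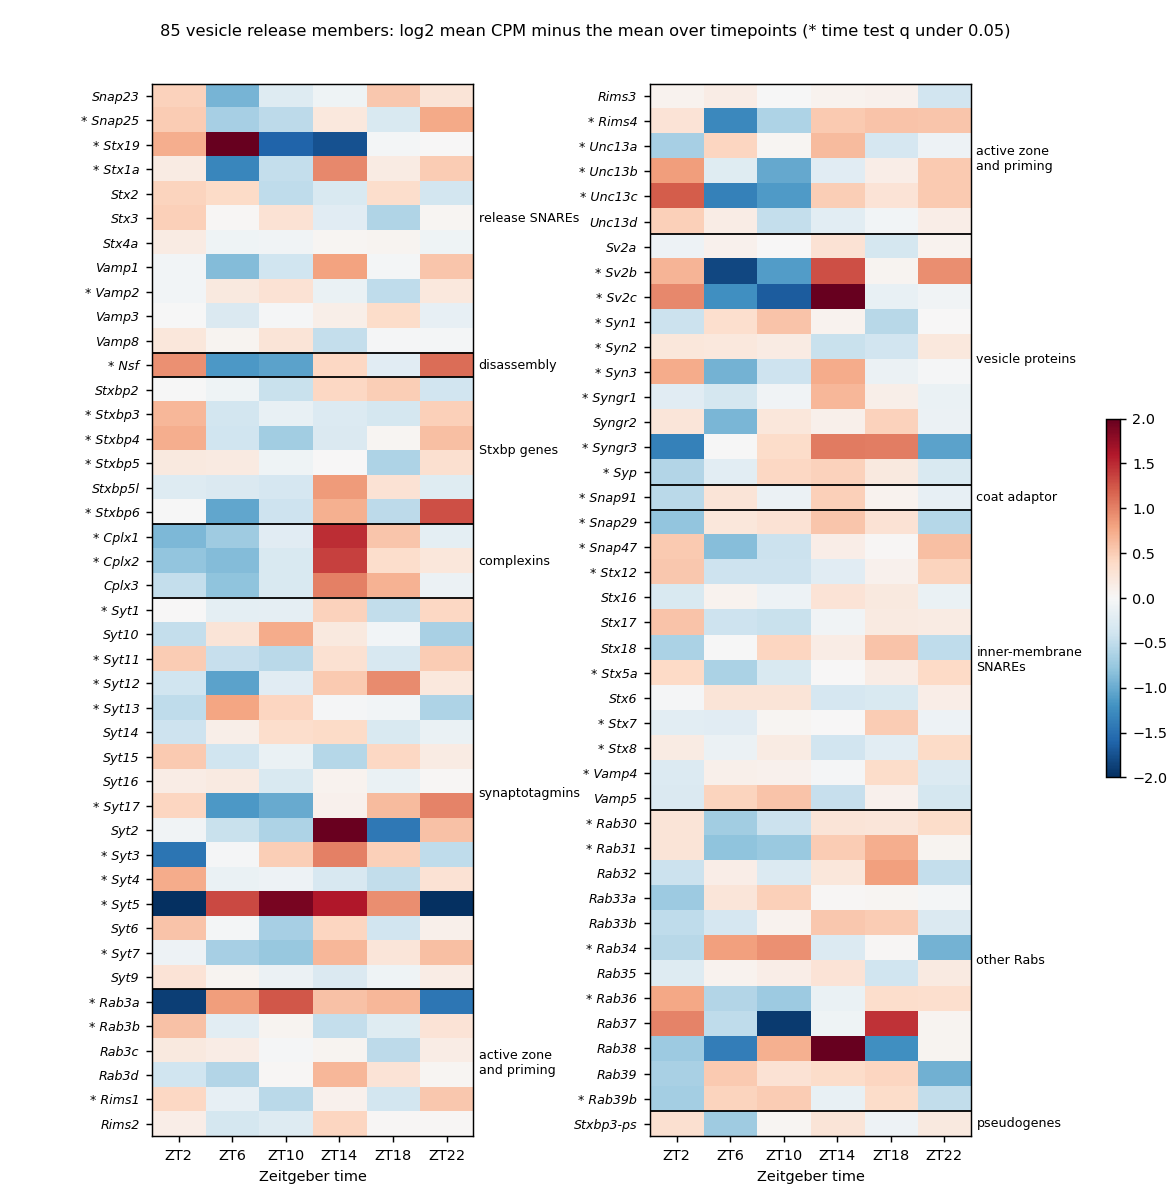
Log2 mean CPM (with 0.1 added) of 85 members at the 6 timepoints (columns), centred on the gene's own mean over timepoints, in rows grouped by role; an asterisk marks the 48 members that passed the time test. The complexins stand highest at ZT14, *Nsf* and *Snap25* at ZT22, and *Syt5* and *Rab3a* are low at ZT2 and ZT22.

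The genes of the fusion complex itself differed in the timepoint of their highest mean. *Snap25* held 4143, 4206 and 4272 CPM at ZT2, 2172, 1763 and 1649 at ZT6 and 2009.8, 1859.7 and 2295 at ZT10 in the light phase, and in the dark phase 3729, 2667 and 3891 at ZT14, 2454, 2582 and 2136 at ZT18 and 4139.8, 5572 and 5250.3 at ZT22. Its ZT6 and ZT10 replicates all lay under those of ZT2 and ZT22, and its mean ran from 1861 ± 275 CPM at ZT6 to 4987 ± 751 CPM at ZT22 (SD, n = 3; time test q = 8.09e-06; exact JTK_CYCLE p = 0.0130). That comparison crosses clusters, where timepoint and any batch cannot be told apart. *Stx1a*, which encodes the plasma membrane syntaxin of the complex, held 153, 179 and 194 CPM at ZT2, 76.3, 86.1 and 27.2 at ZT6 and 98.9, 114 and 125 at ZT10 in the light phase, and in the dark phase 327, 204 and 382 at ZT14, 179, 238 and 114 at ZT18 and 200.02, 223 and 247 at ZT22. It was highest at ZT14 and lowest at ZT6, 4.82-fold apart (q = 5.88e-04), and its ZT18 replicates spread over a wide range. The study had itself picked *Stx1a* as a twin-peaking gene from these libraries, so that its profile here is not independent evidence.

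*Vamp2*, the vesicle SNARE, went another way. It held 261, 270.4 and 273 CPM at ZT2, 273, 327 and 351 at ZT6 and 305, 345 and 365 at ZT10 in the light phase, and in the dark phase 249.3, 263 and 242 at ZT14, 191, 200.7 and 190.2 at ZT18 and 296, 370.1 and 299 at ZT22. All 3 ZT18 replicates lay below every other replicate, and the highest means were at ZT10 and ZT22 (q = 0.00124). Its range was small, with the highest mean 1.74 times the lowest. *Vamp1*, a paralogue that carries release at other synapses, gave only 2.87% of the RPKM of *Vamp1*, *Vamp2* and *Vamp3*, with means of 24.5, 13.9, 19.2, 44.5, 24.7 and 37.3 CPM (q = 0.0941). *Vamp3*, the widely expressed cellubrevin, gave 28.3 to 32.7% at ZT18 and 21.1 to 22.7% at ZT14, ranges that did not overlap. Of the other release SNAREs, *Snap23*, *Stx2*, *Stx3*, *Stx4a*, *Vamp3* and *Vamp8* did not pass the time test (q from 0.107 to 0.906). *Stx19* passed (q = 0.0443), but at ZT6 its 3 replicates were 0, 0.947 and 12.0 CPM, so that 1 library made its peak, and without that library (ZT6 replicate C) the q was 0.293.

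*Nsf*, the ATPase that recycles SNAREs after fusion, had the smallest time-test q of the core. Its replicates held 1265, 1456 and 1117 CPM at ZT2, 335, 346 and 239 at ZT6 and 351, 292 and 334 at ZT10 in the light phase, and in the dark phase 924, 749 and 1049 at ZT14, 732, 613 and 398 at ZT18 and 1175, 1601 and 1647 at ZT22. The ZT2 and ZT22 replicates lay at 1117 CPM or more and the ZT6 and ZT10 replicates at 351 CPM or less, with no overlap, and the means differed 4.81-fold (q = 5.12e-07). For *Nsf* too the step falls between clusters, where timepoint and any batch cannot be told apart. Inside clusters its log2 differences were 0.64 (SE 0.22) for ZT14 minus ZT18 and 0.20 (SE 0.22) for ZT22 minus ZT2. Among the syntaxin-binding proteins, *Stxbp3* (q = 0.0142) and *Stxbp4* (q = 2.02e-04) were highest at ZT2. *Stxbp5*, or tomosyn, which competes with VAMP2 for the SNARE complex, was lowest at ZT18 (q = 0.0216). *Stxbp6*, or amisyn, another SNARE-binding inhibitor, had its highest means at ZT22 and ZT14, 31.3 and 21.1 CPM, against 6.21 at ZT6 (q = 0.0219).

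**Figure D2:**
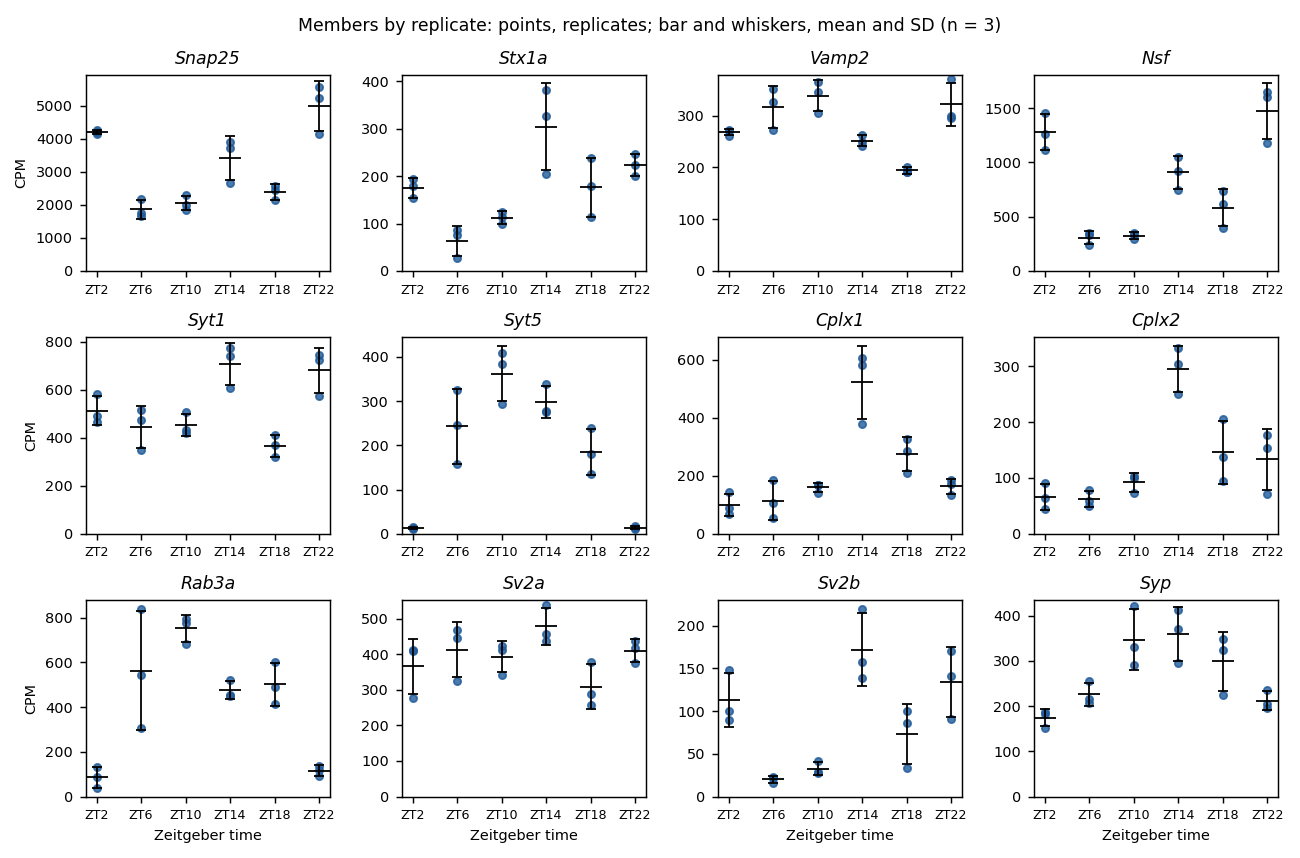
CPM of 11 core members and *Syt5* in every replicate (points) with the mean and SD at each timepoint (n = 3), on linear axes from 0. *Syt5* and *Rab3a* are low in all 6 replicates of ZT2 and ZT22, *Nsf* and *Snap25* are low in all 6 of ZT6 and ZT10, and *Cplx1* and *Cplx2* are highest in the 3 of ZT14.

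Among the synaptotagmins 9 of 16 changed with time, a share not far from the 44% of all genes. *Syt5*, a synaptotagmin of dense-core vesicles, had the smallest q of all members (1.72e-09). It held 10.2, 14.6 and 12.9 CPM at ZT2, 325, 246 and 157 at ZT6 and 409, 384 and 293 at ZT10 in the light phase, and in the dark phase 339, 278 and 276 at ZT14, 239.8, 180.0 and 136 at ZT18 and 18.5, 13.1 and 10.4 at ZT22. The 6 replicates of ZT22 and ZT2 lay between 10.2 and 18.5 CPM and the other 12 between 136 and 409, and the highest mean was 28.9 times the lowest. This step falls between clusters, where timepoint and sequencing batch cannot be told apart. Its transcripts have the highest GC content of the members (61.3%), and GC content varied with this difference across genes, as described with the base composition. Inside clusters the log2 differences of *Syt5* were 0.68 (SE 0.27, q = 0.254) for ZT14 minus ZT18 and 0.16 (SE 0.27, q = 1.00) for ZT22 minus ZT2.

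*Syt1*, the main sensor for fast release, had a different shape. Its replicates held 467, 489 and 582 CPM at ZT2, 516, 472 and 349 at ZT6 and 430.2, 419.8 and 505 at ZT10 in the light phase, and in the dark phase 739, 608 and 773 at ZT14, 409, 369 and 318 at ZT18 and 574, 745 and 722 at ZT22. The highest means were at ZT14 and ZT22, 707 and 680.5 CPM, and the lowest at ZT18, 366 CPM (q = 0.00110), while the exact JTK_CYCLE test gave p = 1.00, so that it did not count as a 24-hr cycler. *Syt11*, which does not bind calcium, ranged from 702 ± 35.9 CPM at ZT10 to 1444 ± 172 CPM at ZT22, with ZT2 close to ZT22 at 1440.2 ± 144 CPM (n = 3; q = 4.28e-05). *Syt7*, the slow sensor for asynchronous release, had means of 22.8, 15.4, 14.4, 38.8, 28.8 and 36.9 CPM (q = 0.0154). *Syt4* fell from 1312 ± 318 CPM at ZT2 to 559 ± 45.6 CPM at ZT18 (n = 3; q = 9.50e-05), and *Syt13* peaked at ZT6 with 251 ± 11.2 CPM, 2.65 times its level at ZT22 (q = 2.63e-05). *Syt17* had its highest mean at ZT22, 94.2 ± 18.0 CPM, and its lowest at ZT6, 21.2 ± 8.59 CPM (q = 3.93e-05). The other fast sensors were low and passed no test over time. *Syt2* held 28.4, 21.6 and 16.1 CPM at ZT14 and at most 9.64 CPM in any other replicate (q = 0.0975), and *Syt9* had timepoint means between 21.2 and 31.4 CPM, with replicates from 12.7 to 42.0 CPM (q = 0.772). *Syt10* was highest at ZT10, 562 ± 106 CPM, but the ZT6 replicates were 600.2, 519 and 86.5 CPM and it did not pass (q = 0.102).

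Of the 3 complexins, small proteins that bind the assembled SNARE complex, *Cplx1* and *Cplx2* changed with time and peaked at ZT14. *Cplx1* held 68.7, 88.0 and 143 CPM at ZT2, 186, 105.3 and 52.9 at ZT6 and 169.8, 141 and 169 at ZT10 in the light phase, and in the dark phase 581, 379 and 607 at ZT14, 326, 286 and 211 at ZT18 and 132, 184 and 172 at ZT22. Every ZT14 replicate lay above every other replicate, and the mean was 5.23 times that of ZT2 (q = 9.64e-05; exact JTK_CYCLE p = 0.00150). *Cplx2* held 64.2, 43.9 and 90.7 CPM at ZT2, 78.5, 58.9 and 50.5 at ZT6 and 72.3, 99.9 and 104 at ZT10 in the light phase, and in the dark phase 332, 304 and 250.2 at ZT14, 94.5, 137 and 205 at ZT18 and 71.3, 176 and 153 at ZT22. The ZT14 replicates were again the 3 highest (q = 1.20e-04). *Cplx3*, the least expressed of them, had means of 5.18, 4.12, 5.85, 14.7, 11.8 and 6.67 CPM and did not pass the time test (q = 0.369). *Cplx1* kept between 67.0 and 86.6% of the complexin RPKM in the 18 replicates.

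At the active zone the shares of the paralogues in a family differed between timepoints. *Rab3a*, the main Rab of synaptic vesicles, held 37.7, 89.0 and 132 CPM at ZT2, 839, 543 and 309 at ZT6 and 776, 796 and 684 at ZT10 in the light phase, and in the dark phase 523, 453 and 451 at ZT14, 602, 489 and 413 at ZT18 and 137, 91.7 and 120.2 at ZT22. The 6 replicates of ZT22 and ZT2 reached at most 137 CPM and the other 12 at least 309 CPM (q = 1.00e-05). *Rab3b* ran the other way, with its highest mean at ZT2, 390.3 ± 30.7 CPM, and its lowest at ZT14, 187 ± 17.05 CPM (q = 0.00813). Of the summed RPKM of the 4 Rab3 genes, *Rab3a* gave 11.6 to 32.5% at ZT2 and 28.6 to 33.1% at ZT22, against 70.5 to 78.3% at ZT6, and *Rab3b* gave 56.1 to 75.3%, 49.4 to 57.2% and 17.2 to 21.8%. These shares compare timepoints of different clusters, where timepoint and any batch cannot be told apart. *Rab3c* did not pass the time test (q = 0.0963).

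**Figure D3:**
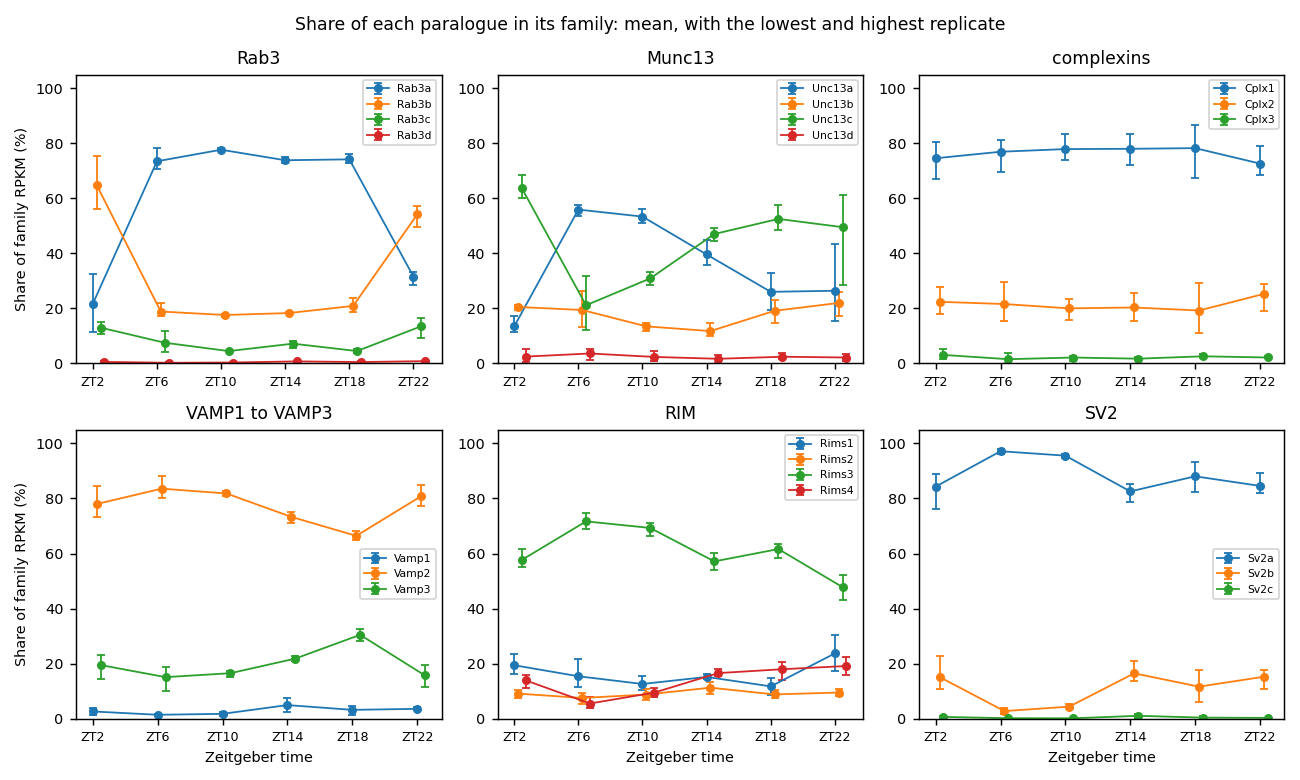
Share of each paralogue in the summed RPKM of its family (%), by timepoint, as the mean with the lowest and the highest replicate (n = 3), for the Rab3, Munc13, complexin, VAMP, RIM and SV2 families. *Rab3b* leads its family at ZT2 and ZT22 and *Rab3a* at the other 4 timepoints, and *Unc13a* leads the Munc13 genes at ZT6 and ZT10.

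Among the Munc13 genes, the priming factors, *Unc13a* encodes the form on which most central synapses rely. It held 12.3, 16.2 and 14.5 CPM at ZT2, 27.7, 26.6 and 38.2 at ZT6 and 22.3, 18.6 and 29.8 at ZT10 in the light phase, and in the dark phase 40.3, 33.0 and 33.2 at ZT14, 19.8, 21.2 and 12.999 at ZT18 and 11.6, 29.9 and 22.2 at ZT22 (q = 0.0156), highest at ZT14 and lowest at ZT2. *Unc13b* and *Unc13c*, the second of which is best known from the cerebellum, were highest at ZT2 with 40.0 ± 4.23 CPM and 48.5 ± 11.04 CPM (q = 0.00158 and 1.83e-04). *Unc13a* gave 53.6 to 57.6% of the family at ZT6 and 11.4 to 17.1% at ZT2, and *Unc13c* 12.1 to 31.7% and 60.1 to 68.6%. ZT6 and ZT2 lie in different clusters, where timepoint and any batch cannot be told apart. The transcripts of *Unc13a* and *Unc13c* have 56.5% and 46.1% GC, and the part of GC content in these shares was not tested. The RIMs *Rims1* and *Rims2*, which tie Rab3 and calcium channels to the release site, came next. *Rims1* was highest at ZT22, 86.3 ± 22.4 CPM, and lowest at ZT10, 40.8 ± 7.44 CPM (q = 0.00773), while *Rims2* missed the threshold (q = 0.0590). The short forms *Rims3* (q = 0.143) and *Rims4* (q = 2.10e-04) differed in that *Rims4* was 3.64 times higher at ZT18 than at ZT6.

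Of the 10 vesicle membrane and surface proteins, 8 changed with time, beside 44% of all genes. *Sv2a*, the widespread SV2 glycoprotein, stayed between means of 308 and 478 CPM (q = 0.147). *Sv2b* held 149, 89.6 and 99.8 CPM at ZT2, 21.7, 15.3 and 22.9 at ZT6 and 28.5, 27.4 and 41.2 at ZT10 in the light phase, and in the dark phase 157, 138 and 219 at ZT14, 86.6, 99.7 and 33.4 at ZT18 and 90.6, 141 and 171 at ZT22. The 6 replicates of ZT6 and ZT10 reached at most 41.2 CPM, those of ZT2, ZT14 and ZT22 at least 89.6 CPM, and those of ZT18 spread across both ranges, and the highest mean was 8.60 times the lowest (q = 1.06e-05). The low levels of *Sv2b* at ZT6 and ZT10 also fall between clusters, where timepoint and any batch cannot be told apart. *Sv2c* was rare, and its call (q = 0.0473) was lost under 15 of the alternative settings, the largest q of which was without ZT14 replicate B (q = 0.192). *Syp*, or synaptophysin, rose from 174 ± 18.8 CPM at ZT2 to 359 ± 58.6 CPM at ZT14 (n = 3; q = 8.11e-04; exact JTK_CYCLE p = 4.78e-05). The synapsins tether vesicles in the reserve pool. *Syn1* was highest at ZT10, 119 ± 25.7 CPM, and lowest at ZT18, 54.8 ± 19.01 CPM (q = 0.0172), and *Syn2* was lowest at ZT14 and ZT18 with 174 ± 14.4 CPM and 183 ± 5.70 CPM (q = 6.01e-04). *Syngr3* ranged from 106 ± 67.5 CPM at ZT2 to 562 ± 39.0 CPM at ZT14 (q = 3.74e-04).

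Other members work elsewhere in the cell. Of 12 SNAREs of inner membranes, 7 changed, and of the 12 other Rabs 5 did, shares on either side of the 44% of all genes. *Snap47*, *Stx12* and *Stx5a*, the last a SNARE of the Golgi, shared high levels at ZT2 and ZT22 and low ones at ZT6 and ZT10, with means of 927, 357, 478, 712, 659.6 and 983 CPM for *Snap47* (q = 8.24e-04). The endosomal SNAREs *Stx7* (q = 0.0221) and *Vamp4* (q = 0.0105) were highest at ZT18. *Rab34* was highest at ZT10 and *Rab31* at ZT18 (q = 6.20e-05 and 2.33e-04).

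The comparison of ZT14 with ZT18 lies inside one cluster. Here *Syt1* was the one member past the threshold, with 739, 608 and 773 CPM at ZT14 and 409, 369 and 318 at ZT18, which do not overlap. Its log2 difference was 0.95 (SE 0.18, q = 0.0245), beside 0.412% of all genes that were called higher and 0.158% called lower. The q was 0.131, 0.0588 or 0.0949 without ZT14 replicate A, B or C, and 0.0733 or 0.0867 without ZT18 replicate B or C. In a fit of the 6 replicates of ZT14 and ZT18 alone the q was 0.0939, and DESeq2 called 5 members, *Sv2a*, *Sv2b*, *Syt1*, *Syt11* and *Unc13a*.

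At an unadjusted p under 0.05, 21 members were higher at ZT14 than at ZT18 and 3 lower (*Rab36*, *Stx7* and *Vamp4*), 24.1% and 3.45% of the members, beside 7.09% and 6.45% of all genes. The 25 genes of the core of the release machine held 14 of these 21 and none of the 3. In the core 21 of 25 log2 differences were above 0, with a median of 0.63, beside medians of -0.02 over the other 62 members and 0.01 over all genes. The 4 below 0 were *Rab3a*, *Syn2*, *Syt9* and *Unc13b*. The core was listed with earlier results of these data known, so this count describes it and carries no test. Over the alternative settings the count in the core ran from 11 to 16, lowest at 11 without ZT14 replicate A, ZT14 replicate C or ZT18 replicate C. By role, the differences were 0.93 (SE 0.35, q = 0.233) and 1.02 (SE 0.33, q = 0.164) for *Cplx1* and *Cplx2*, 0.78 (SE 0.33, q = 0.301) and 0.52 (SE 0.17, q = 0.169) for *Stx1a* and *Snap25*, and 0.98 (SE 0.31, q = 0.151) for *Unc13a*. They were 0.37 (SE 0.14, q = 0.233) for *Vamp2*, 0.64 (SE 0.22, q = 0.183) for *Nsf*, 0.63 (SE 0.19, q = 0.141) for *Sv2a* and 1.23 (SE 0.34, q = 0.103) for *Sv2b*. None of these passed after adjustment.

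**Figure D4:**
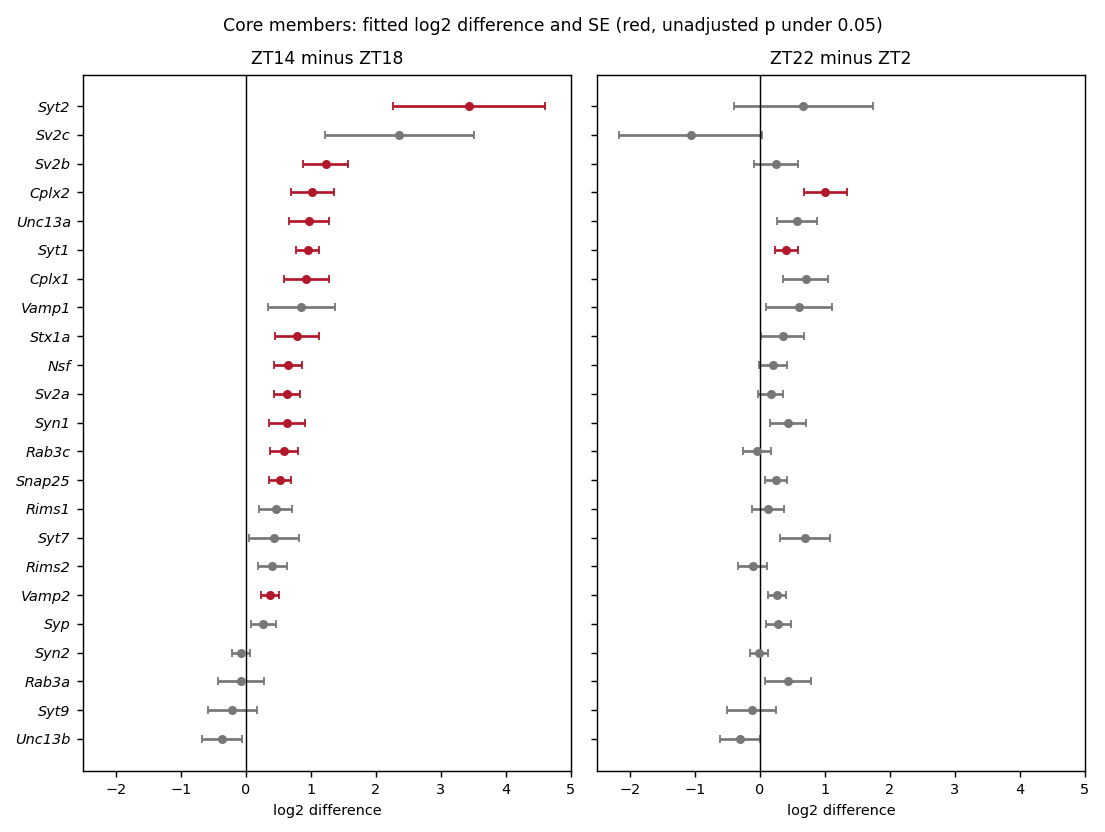
Fitted log2 difference with its SE for 23 of the 25 core members (rows), ZT14 minus ZT18 on the left and ZT22 minus ZT2 on the right; red marks an unadjusted p under 0.05. On the left 19 of 23 points lie right of 0, and on the right 17 of 23.

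Lists of cell type markers differed in direction between ZT14 and ZT18. Of 9 markers of telencephalic excitatory neurons, cells that lie outside the SCN, 9 had higher levels at ZT14 than at ZT18 (4 at an unadjusted p under 0.05), with a median log2 difference of 1.52. Their summed level was 1158 to 1776 CPM at ZT14 and 408 to 669.7 CPM at ZT18, against 162 to 284 CPM at ZT6. None of the 9 was at 0 over a timepoint. *Camk2a*, which the SCN is also known to express, made up most of the sum, and the vesicular glutamate transporter gene *Slc17a7* had means of 61.0 CPM at ZT14 and 15.5 at ZT18. General neuronal markers were higher at ZT14 in 6 of 8 (median log2 0.54, summed 2937 to 3571 CPM against 1969 to 3338 CPM). GABA neuron markers summed to 915 to 1323 CPM against 1074 to 1262 CPM, and SCN neuron markers to 1502 to 2047 CPM against 2021 to 2436 CPM. Of the 10 SCN neuron markers, 7 were nonetheless above 0 (median log2 0.12), with 3 higher and 2 lower at an unadjusted p under 0.05. *Vip* makes up most of the sum. Oligodendrocyte markers, at 4740.0 to 5923 CPM and 5099 to 6104 CPM, and astrocyte markers, at 3895 to 5332 CPM and 4946 to 5330.0 CPM, overlapped between the 2 timepoints, with 3 of 7 and 2 of 7 markers above 0. Markers of neighbouring hypothalamic neurons were above 0 in 3 of 9 (median log2 -0.67), those of endothelial cells in 2 of 6 (median -0.58) and those of microglia in 5 of 7 (median 0.11). The part of the excitatory markers in the core's difference was not tested.

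**Figure D5:**
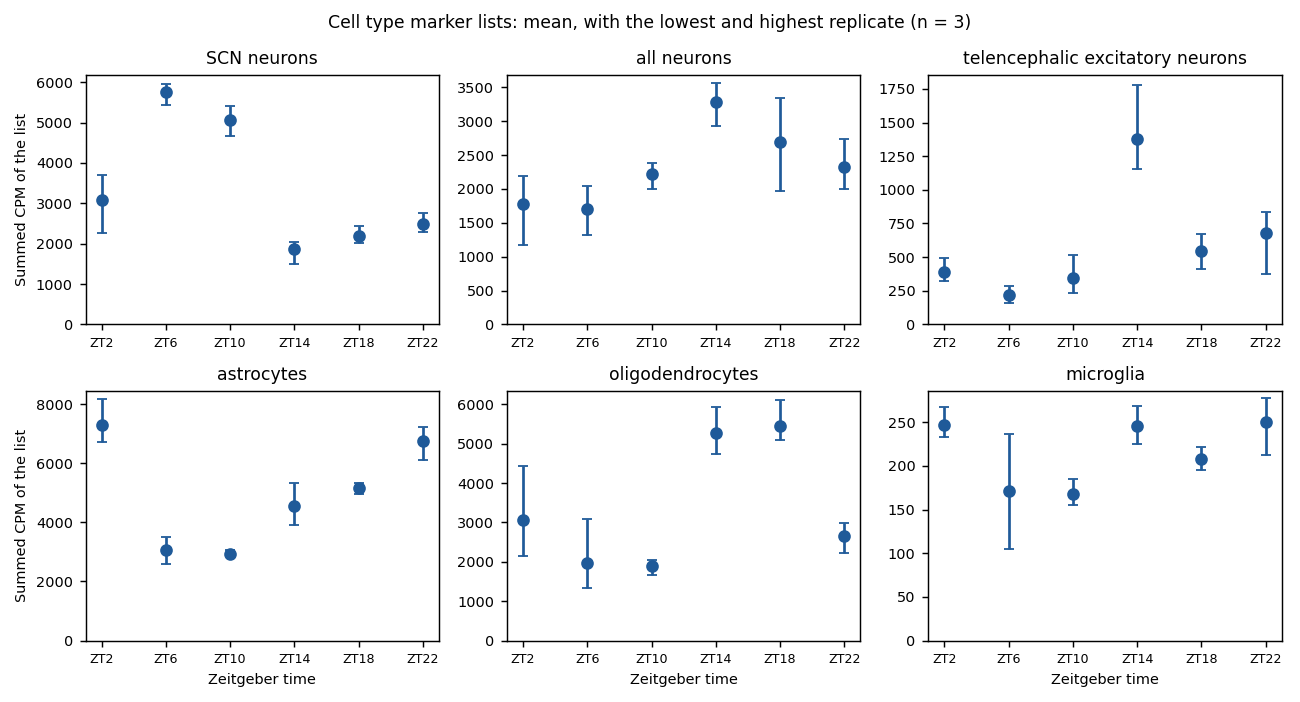
Summed CPM of 6 cell type marker lists at each timepoint, as the mean with the lowest and the highest replicate (n = 3). The telencephalic excitatory list stands highest at ZT14, where its lowest replicate lies above every replicate of the other timepoints, and the SCN neuron list is highest at ZT6 and ZT10.

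ZT22 and ZT2 share a cluster too. The edgeR test called 0 members in either direction, beside 0% of genes called higher and 0.0317% called lower, and DESeq2 also called 0. At an unadjusted p under 0.05, 5 members were higher at ZT22 (*Cplx2*, *Snap91*, *Stxbp6*, *Syt1* and *Syt3*) and 2 lower (*Rims3* and *Syt4*), 5.75% and 2.3% of the members, beside 2% and 1.59% of all genes. The members with the smallest p had log2 differences of 1.01 (SE 0.33, q = 1.00) for *Cplx2*, -0.46 (SE 0.17, q = 1.00) for *Rims3* and -0.44 (SE 0.17, q = 1.00) for *Syt4*. For *Cplx2* the replicates were 71.3, 176 and 153 CPM at ZT22 and 64.2, 43.9 and 90.7 at ZT2, with ZT22 replicate A inside the ZT2 range. In the core 19 of 25 differences were above 0, with a median of 0.25. Of the other 62 members 30 were above 0 (median -0.05), and of all genes 51.5% (median 0.01). The core was listed with earlier results of these data known, so its count carries no test. In the core 2 members (*Cplx2* and *Syt1*) were under an unadjusted p of 0.05. That count was 1 without ZT2 replicate A or B or ZT22 replicate B or C, 4 without ZT2 replicate C and 6 without ZT22 replicate A. The excitatory markers were again higher in 9 of 9 (median log2 1.12), with sums of 372 to 835 CPM at ZT22 and 325 to 496 CPM at ZT2 that overlap. General neuronal markers were above 0 in 8 of 8 (median log2 0.52, 3 higher at an unadjusted p under 0.05) and markers of neighbouring hypothalamic neurons in 8 of 9 (median 0.82). SCN neuron markers were above 0 in 1 of 10 (median -0.52, 6 lower at an unadjusted p under 0.05). The part of these lists in the core's difference was not tested.

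Between ZT6 and ZT10 the edgeR test called 0 members, beside 0.0211% of genes higher and 0.0264% lower, and DESeq2 called 1 (*Stx19*). At an unadjusted p under 0.05, 3 members were higher at ZT6 (*Snap91*, *Stx19* and *Unc13b*) and 6 lower (*Rab38*, *Rims4*, *Stx1a*, *Syngr2*, *Syp* and *Syt5*), 3.45% and 6.9%, beside 4.21% and 6.57% of all genes. The smallest p belonged to *Syp*, -0.62 (SE 0.19, q = 0.334), *Stx19*, 4.96 (SE 1.68, q = 0.359), and *Syngr2*, -1.15 (SE 0.45, q = 0.402). The ZT6 replicates were 0, 0.947 and 12.0 CPM for *Stx19* and 12.1, 18.0 and 2.22 CPM for *Syngr2*. Replicate C was thus the highest for *Stx19* and the lowest for *Syngr2*. Over the members the median was -0.10, beside -0.03 over all genes. The excitatory markers were above 0 in 0 of 9 (median log2 -1.21, 4 lower at an unadjusted p under 0.05), with sums of 162 to 284 CPM at ZT6 and 232 to 514 CPM at ZT10, and general neuronal markers in 1 of 8 (median -0.37). Their part in the lower values of members such as *Stx1a* and *Syp* at ZT6 was not tested.

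The study singled out genes with peaks at both ZT14 and ZT22. It took them from a module of coexpressed genes, and reported the same profile by quantitative PCR for those it measured. That module was not rebuilt here, so the calls below follow a different rule from the study's. Twin-peaking was counted here as a passed time test with the highest 2 means at ZT14 and ZT22, which held for 5 members, *Stx1a*, *Stxbp6*, *Sv2b*, *Syt1* and *Syt7*, or 5.75%, beside 2.15% of all genes. The rule asks for no dip beside either peak. *Stxbp6* and *Syt1* were higher at ZT22 than at ZT2 at an unadjusted p under 0.05, and *Stx1a*, *Sv2b* and *Syt7* were not. *Stx1a* was also called cycling, with a fitted peak at ZT18. For each of the 8 further pairs of non-adjacent timepoints the count was between 0 and 2 members. Over all genes ZT14 with ZT22 was the most frequent of the 9 pairs too, with 408 genes against 44 to 331 for the others. Since the study drew its twin-peaking genes from these libraries, this count is not independent evidence of the profile. A contrast in which a shift shared by the libraries of a cluster cancels, the mean of ZT14 and ZT22 minus the mean of ZT18 and ZT2, called *Syt1* alone, with a log2 difference of 0.68 (SE 0.12, q = 0.0463), beside 0.127% of genes higher and 0.0211% lower. That call remained without ZT6 replicate A, ZT6 replicate C, ZT10 replicate C or ZT22 replicate A, and was lost without each of the other 14 replicates, with q up to 0.176 without ZT22 replicate B. DESeq2 called 6 members, *Cplx1*, *Cplx2*, *Rab35*, *Snap91*, *Syt1* and *Unc13a*. At an unadjusted p, 21 members were higher and 1 (*Rab36*) lower, 24.1% and 1.15%, beside 5.94% and 4.67% of all genes. The core held 12 of the 21, and over the alternative settings 11 to 15. In the core 22 of 25 differences were above 0, with a median of 0.40. Of the other 62 members 30 were above 0 (median -0.04), and of all genes 51.3% (median 0.01). The core was listed with earlier results of these data known, so its counts carry no test. The excitatory markers had 9 of 9 above 0 in the same contrast (7 at an unadjusted p under 0.05, median 1.30). Both within-cluster differences were above 0 at an unadjusted p in *Cplx2*, *Snap91* and *Syt1*, beside 0.634% of all genes. *Snap91*, also called AP180, helps to form the clathrin coat that retrieves vesicles after fusion, and held 93.2, 94.9 and 99.8 CPM at ZT2, 139, 162 and 196 at ZT6 and 128, 114 and 142 at ZT10 in the light phase, and in the dark phase 193, 193 and 196 at ZT14, 159.6, 139.9 and 139 at ZT18 and 108, 141 and 124 at ZT22. The order of the 5 called members by this contrast was *Stxbp6* at 1.27, *Sv2b* at 0.74, *Syt1* at 0.68, *Stx1a* at 0.57 and *Syt7* at 0.56, with SEs of 0.12 to 0.42, and from *Sv2b* on neighbours differed by less than the smallest of these SEs.

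ZT6 and ZT10, in the middle and late part of the light phase, were then set against the other 4 timepoints. The contrast crosses clusters, so that time of day and any batch cannot be told apart. Against the mean of the other 4, 12 members were higher at ZT6 and ZT10 and 30 lower, 13.8% and 34.5%, beside 20.4% and 21.1% of all genes. A difference from that mean need not hold against each of the 4 timepoints. Lower than that mean by log2 difference were *Sv2b* at -2.21 (SE 0.23, q = 7.82e-07), *Nsf* at -1.66 (SE 0.14, q = 9.43e-08), *Stx1a* at -1.34 (SE 0.22, q = 7.53e-05) and *Snap25* at -0.89 (SE 0.11, q = 4.32e-06). Also lower were *Cplx1*, *Cplx2*, *Rims1*, *Rims2*, *Syt1*, *Syt7*, *Unc13b* and *Vamp1*. Of these, *Cplx1* had its lowest mean at ZT2 (99.9 CPM, against 115 at ZT6 and 160 at ZT10). *Syt1* had its lowest at ZT18 (366 CPM, against 445 at ZT6 and 452 at ZT10). Higher than that mean were *Syt5* at 2.41 (SE 0.16, q = 2.72e-09), *Rab3a* at 1.56 (SE 0.21, q = 1.01e-05), *Syt13*, *Syn1*, *Syn2* and *Vamp2*. *Syt5* and *Rab3a*, low at ZT22 and ZT2, stood only 0.32 and 0.43 (log2) above ZT14 with ZT18. *Syn2* had means of 274 and 267 CPM at ZT6 and ZT10, and 279 and 276 CPM at ZT2 and ZT22. Counted in the reads recovered from the authors' normalized table, which differ from the count table mainly in these 6 libraries, the median over the members was -0.14 and not -0.29. SCN neuron markers, which include clock-driven peptides, were higher at ZT6 and ZT10 in 10 of 10 (median log2 1.41), and astrocyte markers lower in 7 of 7 (median -0.86). Excitatory markers were above 0 in 2 of 9 (median -0.61, 1 higher and 4 lower at an unadjusted p under 0.05). General neuronal markers were above 0 in 3 of 8 (median -0.65, 2 higher and 5 lower). GABA neuron markers were above 0 in 3 of 3 (median 0.725) and oligodendrocyte markers in 2 of 7 (median -1.015). The part of these lists in the members' difference was not tested.

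The wider pathway was described from 53 other genes of vesicle docking, priming, filling and retrieval, of which 53 were tested. Of these 37 changed with time, 27 were called cycling and 4 twin-peaking (*Bsn*, *Rimbp2*, *Rab3gap2* and *Slc17a7*), beside 44%, 29.9% and 2.15% of all genes. 2 genes passed the threshold between ZT14 and ZT18, both higher at ZT14. They were *Dnm1*, the GTPase that pinches off endocytic vesicles, with 0.89 (SE 0.18, q = 0.0345), and *Slc17a7*, with 1.98 (SE 0.40, q = 0.0352), which is also one of the 9 excitatory markers. The same 2 passed in the summed contrast, with 0.75 (SE 0.13, q = 0.0367) and 1.76 (SE 0.28, q = 0.0262). At an unadjusted p, 17 were higher at ZT14 and 3 lower (*Snapin*, *Sytl4* and *Synpr*), beside 7.09% and 6.45% of all genes. *Bsn*, which encodes the active zone scaffold bassoon, had 1.11 (SE 0.29, q = 0.0842). *Napb*, the adaptor that brings NSF to the SNARE complex in neurons, had means of 476, 142, 168, 341, 236 and 522 CPM from ZT2 to ZT22 (q = 8.14e-07), lowest at ZT6 and highest at ZT22, as in *Nsf*.

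Promoter windows of the members, the 250 bases before each start site in RefSeq annotation on GRCm38.p6, were searched on both strands for the E-box CACGTG, the cyclic AMP response element TGACGTCA and the D-box in the forms TTATGTAA and TTACGTAA, motifs known from clock and light-driven genes. Of the 87 members 66 had an entry, with 81 start sites. The E-box was in 10 of these 81 windows (12.3%), beside 6.02% of all 32851 windows, and the cyclic AMP response element in 2 (2.47%, beside 1.55%). The D-box letters were in 0 of 81 windows, beside 0.931% of all. The windows with an E-box belonged to *Cplx3*, *Nsf*, *Stx6*, *Stxbp2*, *Sv2b*, *Syt14*, *Syt6*, *Unc13b* and *Vamp4*, and of these *Nsf*, *Sv2b*, *Unc13b* and *Vamp4* changed with time, with highest means at ZT22, ZT14, ZT2 and ZT18. A match describes these letters and is no evidence of a bound site. The windows shown are those of the core members that changed and hold a match, for *Sv2b* the one of its 4 windows with the match, and one of the 2 windows of *Syt1*, which holds none. Letters in capitals mark the match.
Nsf, chr11:103954057-103954306, minus strand: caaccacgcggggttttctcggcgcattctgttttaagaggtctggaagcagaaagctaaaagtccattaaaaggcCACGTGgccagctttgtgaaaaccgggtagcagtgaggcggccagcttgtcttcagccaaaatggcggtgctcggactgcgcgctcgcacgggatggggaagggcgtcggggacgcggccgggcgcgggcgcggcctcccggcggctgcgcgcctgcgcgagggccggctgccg
Sv2b, chr7:75302610-75302859, minus strand: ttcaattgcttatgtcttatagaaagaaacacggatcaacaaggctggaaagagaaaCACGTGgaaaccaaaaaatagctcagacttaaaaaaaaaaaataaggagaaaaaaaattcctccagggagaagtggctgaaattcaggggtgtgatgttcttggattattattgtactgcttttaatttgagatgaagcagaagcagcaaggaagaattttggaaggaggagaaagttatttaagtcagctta
Unc13b, chr4:43058703-43058952, plus strand: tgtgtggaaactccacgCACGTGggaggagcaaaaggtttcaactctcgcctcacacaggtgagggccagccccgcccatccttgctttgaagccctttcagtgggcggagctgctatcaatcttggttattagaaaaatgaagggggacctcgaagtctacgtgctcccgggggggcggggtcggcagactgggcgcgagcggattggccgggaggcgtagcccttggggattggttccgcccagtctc
Syn1, chrX:20920919-20921168, minus strand: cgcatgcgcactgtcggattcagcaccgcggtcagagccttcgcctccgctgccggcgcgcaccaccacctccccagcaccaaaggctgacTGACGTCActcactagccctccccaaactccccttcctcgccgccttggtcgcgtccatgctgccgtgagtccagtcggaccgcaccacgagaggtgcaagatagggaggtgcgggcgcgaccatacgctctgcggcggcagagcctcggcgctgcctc
Syt1, chr10:109010976-109011225, minus strand: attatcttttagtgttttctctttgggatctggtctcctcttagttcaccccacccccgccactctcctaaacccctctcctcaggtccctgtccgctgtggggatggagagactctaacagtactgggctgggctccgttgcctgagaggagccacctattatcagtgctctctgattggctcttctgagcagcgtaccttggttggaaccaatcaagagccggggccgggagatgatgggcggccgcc

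Base composition and transcript length varied with the differences between clusters. Over the 87 members, the log2 difference of ZT22 with ZT2 against ZT14 with ZT18 had a Pearson r of -0.37 and a Spearman rho of -0.34 with the GC content of the transcripts, beside -0.35 and -0.37 over all genes with a value. With log2 exon length the r was 0.37 and the rho 0.36 over the members, beside 0.14 and 0.12 over all genes. These are correlations across genes that share libraries, given as a description. The 29 members of highest GC (54.2 to 61.3%) had a median difference of -0.59 and the 29 of lowest GC (40.0 to 48.7%) a median of 0.15. Inside the cluster of ZT14 and ZT18 the r with GC was 0.05 over the members. For ZT22 minus ZT2, also inside a cluster, the r was 0.21 and the rho 0.24, beside 0.11 and 0.18 over all genes. *Rab3a*, *Syt5*, *Syngr3* and *Syp*, all low at ZT22 and ZT2, are among the 29 members of highest GC. Others of those 29 went the other way, such as *Vamp2* at 0.40 and *Rab36* at 0.43. *Snap29*, with 45.8% GC, stood at -1.09. The part of GC content and length in these levels was not tested.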

How the data were processed

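SCN RNA from 18 biological replicates (6 timepoints with 3 pools each) had been amplified with SMARTer and sequenced on 3 lanes per replicate, combined by the authors. The authors aligned reads with GSNAP to GRCm38 (Ensembl annotation and their own lincRNAs) and counted them with HTSeq 0.5.4p1. They deposited a table of raw counts for 30031 genes and a table of normalized signal (counts divided by a DESeq2 size factor per column) for 31077 genes, with 26118 genes in both. Every column was used (0 unused). Dividing the deposited signal by its step recovered whole reads for 100% of values within 0.1, and these reads served as an alternative. The tables differ mainly at ZT6 and ZT10, where 6.9 to 9.58% of the members' values were identical, against 91.6 to 94.6% at the other timepoints, and the cause was not tested.

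Genes that had 1 read or more in over 6 replicates were fitted with edgeR 4.0.16 in R 4.3.3 (TMM scaling, quasi-likelihood F-test, 6 timepoint means, no covariates), with Benjamini-Hochberg q over all 18941 genes and a threshold of 0.05. SE was the log2 difference divided by the square root of F. CPM used TMM library sizes, and RPKM divided CPM by the exon union length. JTK_CYCLE was rewritten with its exact null (period 24 hr, 6 phases, two-sided). Both tests were tested on simulated data. DESeq2 1.42.0, a limma 3.58.1 cosinor fit, other scalings and filters, and leaving out each replicate were alternatives. Total counts per replicate had a median of 25075231, and counting error is small beside the spread of pools except for members with few reads. The p-values weigh the differences between timepoint means against the spread between pools.

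Named members were a core of 25 release genes, the 8 of smallest time q with separated replicates, those past the threshold or else the 3 of smallest p in each contrast, those of highest and lowest RPKM, and the twin-peaking ones. Others, such as *Snap91*, *Syt10* and *Rab3b*, were chosen after their values were seen. The members, roles, core and gene lists were chosen with earlier results of these data known. The values of 2 members and of 1 gene of the wider pathway list are not reported here singly, though they enter the counts.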

Additional observations from a re-analysis of the deposited data

Results flagged for a closer look

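*Vamp7*, a vesicle SNARE gene that works in endosomal and lysosomal traffic and that the annotation used here places on a scaffold outside the assembled chromosomes, did not enter the comparisons because it had reads in only 6 replicates. These were all replicates of ZT6 and ZT10, with 1925 to 2818 reads each (80.1 to 127 CPM), while the other 12 replicates held 0 reads. A count of 0 allows up to 3 reads per library, so that its level was at least 412-fold higher in the lowest of the 6 than that limit in the other 12. By its mean count at ZT6 and ZT10 it would stand at rank 27 among the members. Over all counted genes, 2 had at least 100 reads in each of these 6 replicates and 0 in the other 12, and 0 showed the reverse. These 6 columns are also the ones that differ between the deposited count table and the normalized table, and the part of the counting in this signal was not tested.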

How the results depend on the processing

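The number of members that changed with time ran from 44 to 52 when single replicates were left out, was 59 with DESeq2 and 32 without the ZT6 and ZT10 libraries (29 of them among the 48), an alternative chosen after seeing the data. Members differing between clusters ran from 48 to 58 and cycling members from 27 to 35 without single replicates, and cycling members numbered 23 with Benjamini-Hochberg adjusted JTK_CYCLE and 30 by cosinor fit. Between ZT14 and ZT18, 5 members passed with DESeq2, 0 in a fit of only those replicates and 0 to 1 without single replicates. Between ZT6 and ZT10, 1 passed with DESeq2 and 0 to 1 without single replicates (*Cplx3*, without ZT6 replicate A). In the summed contrast of ZT14 and ZT22 against ZT18 and ZT2, 6 passed with DESeq2, 2 with no filter on low counts, 0 with upper-quartile scaling, 0 without the ZT6 and ZT10 libraries and 0 to 3 without single replicates (3 without ZT22 replicate A). Twin-peaking members numbered 9 with DESeq2, 9 with no filter, 1 by template correlation (r of 0.7 or more), 3 by an unadjusted p in both within-cluster differences, and 4 to 7 without single replicates. The median over the members kept its sign in all contrasts but ZT22 minus ZT2, where it was -0.0014 in 1 setting. Of the single members named, 55 values lost their call in some setting and 29 gained one, among 1003 compared. The causes of these shifts were not tested.

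The letters A, B and C did not pair the replicates across timepoints: over 45 pairs with the same letter the deviations from the timepoint means had correlations of -0.191 to 0.104 (median -0.003). With the replicate letter as a block 46 members changed with time and 0 passed in the summed contrast (*Syt1* q = 0.0617).

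Depth limited members of a few reads such as *Rab38*, *Syt15*, *Unc13d*, *Stx19* and *Sv2c*, whose levels rest on a few reads in some libraries.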
